A study of Mus musculus with 6 samples.

Results

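The genes described here are 38 imprinted genes of the mouse, chosen by name from 54532 genes measured in liver by RNA sequencing. By background knowledge 24 of them are classed as expressed mainly from the paternal chromosome and 13 mainly from the maternal chromosome. The remaining 1, Gnas, is expressed from either chromosome according to the transcript. The classes refer to tissues where a gene is imprinted, and whether they hold in these livers was not measured. The rule for the choice of the 38 genes uses names only and no measured value. All animals were C57BL/6J males of 8 weeks, and each library was made from total RNA of whole liver. In all, 3 libraries came from offspring whose fathers had received saline (paternal saline) and 3 from offspring whose fathers had received nicotine (paternal nicotine). The labels give no treatment of the offspring, and neither dose, nor schedule, nor the number of fathers and litters. The comparison of the groups asks which liver transcripts differ with the treatment of the father, so p-values here measure only how these animals varied.

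Genomic imprinting is the expression of a gene from only one parental chromosome. In many cases it is set by DNA methylation that is laid down in the germ line of one parent and kept in the cells of the offspring. Many imprinted genes act on fetal and placental growth, and several of them, among them Igf2 and H19, are abundant in fetal liver and are silenced there after birth. Some are imprinted in a few tissues only, such as brain or placenta. RPKM values sum the reads of both parental alleles, so neither the active allele nor a loss of imprinting was measured.

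The promoter windows of 4 members are shown. Slc22a18 was the only member that passed the test, Slc38a4 the most abundant, and Mcts2 the intronless gene with the next largest log2 fold change. Peg3 is shown for its position, since its start lies back to back with that of another member. Each window runs from 250 bases before to 50 bases after the annotated start, in RefSeq on GRCm38.p6, and the capitals mark every CG, the dinucleotide at which mammalian DNA is methylated. The windows are Slc22a18 at chr7:143473539-143473838 on the plus strand, Slc38a4 at chr15:97055907-97056206 on the minus strand, Mcts2 at chr2:152686898-152687197 on the plus strand and Peg3 at chr7:6730370-6730669 on the minus strand.
Slc22a18: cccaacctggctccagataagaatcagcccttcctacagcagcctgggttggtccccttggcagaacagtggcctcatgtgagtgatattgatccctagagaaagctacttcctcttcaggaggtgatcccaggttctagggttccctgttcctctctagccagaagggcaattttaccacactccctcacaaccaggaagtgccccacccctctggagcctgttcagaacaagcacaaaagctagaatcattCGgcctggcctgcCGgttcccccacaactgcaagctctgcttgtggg
Slc38a4: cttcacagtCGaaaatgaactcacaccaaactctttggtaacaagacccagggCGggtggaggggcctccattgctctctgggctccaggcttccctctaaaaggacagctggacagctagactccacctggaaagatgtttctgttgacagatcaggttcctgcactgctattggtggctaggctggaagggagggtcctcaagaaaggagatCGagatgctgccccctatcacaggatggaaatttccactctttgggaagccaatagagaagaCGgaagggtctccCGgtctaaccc
Mcts2: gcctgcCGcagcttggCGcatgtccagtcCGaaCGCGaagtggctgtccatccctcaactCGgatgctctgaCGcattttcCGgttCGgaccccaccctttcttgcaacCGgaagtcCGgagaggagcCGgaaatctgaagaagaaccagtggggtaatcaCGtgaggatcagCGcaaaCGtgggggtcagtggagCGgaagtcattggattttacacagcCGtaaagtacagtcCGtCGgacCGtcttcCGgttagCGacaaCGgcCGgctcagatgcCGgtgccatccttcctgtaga
Peg3: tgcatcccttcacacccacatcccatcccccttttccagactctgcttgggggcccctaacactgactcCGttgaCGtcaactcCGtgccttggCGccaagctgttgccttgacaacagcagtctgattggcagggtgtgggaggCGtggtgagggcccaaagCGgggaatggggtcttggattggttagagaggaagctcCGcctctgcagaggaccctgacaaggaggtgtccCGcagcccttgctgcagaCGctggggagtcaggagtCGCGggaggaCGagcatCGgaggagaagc
CG reads the same on both strands. The Slc22a18 window holds 2 CG dinucleotides, the Slc38a4 window 5, the Peg3 window 13 and the Mcts2 window 25. As many or more are found in 85.9% of all 32851 RefSeq windows for Slc22a18, in 62.0% for Slc38a4, in 37.9% for Peg3 and in 18.4% for Mcts2, and 94.6% of all windows hold at least 1. RefSeq windows were found for 31 of the 38 genes, 47 windows in all, with a median of 13 CG against 7 over all windows. The starts of Peg3, on the minus strand, and Usp29, on the plus strand, are 147 bases apart, and their windows share 263 bases. The starts of Sgce, on the minus strand, and Peg10, on the plus strand, are 99 bases apart. No methylation was measured in these samples, and whether these windows carry imprints was not tested.

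The libraries held 61837267 to 70089315 reads, and between 8383 and 8994 genes reached 1 RPKM, that is 1 read per kilobase of annotated exons, scaled to the library total. Summed hepatocyte markers, 8 genes led by albumin and none at 0, were 29379 to 36529 RPKM with paternal saline, against 17014 to 17417 RPKM in paternal nicotine. Of these 8 genes 5 were lower in paternal nicotine without overlap, albumin among them at 19914 to 28635 RPKM against 11098 to 12486 RPKM, and 3 overlapped, namely Apoa1, Cyp2e1 and Hnf4a. Neutrophil markers, also 8 genes, summed to 5.51 to 6.55 RPKM against 25.2 to 84.5 RPKM. Of these, 4 were higher in paternal nicotine without overlap, S100a8, Ly6g, Retnlg and Cxcr2, and 4 overlapped, S100a9, Ngp, Camp and Csf3r. Ly6g, a defining marker, was at 0 in all paternal saline libraries and at 0.139 to 0.694 RPKM in paternal nicotine. Kupffer cell markers were at 180 to 320 RPKM against 177 to 485 RPKM and were highest in paternal nicotine replicate 3. Of these 8 genes 2 were higher in paternal nicotine without overlap, Marco and Cd68, and 6 overlapped. Cholangiocyte markers summed to 8.68 to 11.4 RPKM against 20.1 to 21 RPKM, and of the 6 genes 2 were higher without overlap, Sox9 and Spp1. The 5 mesothelial markers summed to 101 to 171 RPKM against 193 to 235 RPKM, nearly all of it Krt8, a keratin gene that hepatocytes also express. Markers of the exocrine pancreas were at 3658 RPKM in paternal nicotine replicate 2 against 3.04 to 5.33 RPKM in the other 5 libraries, and results are therefore also given without that library where they pass. In whole tissue, fewer cells of a type and less RNA per cell cannot be told apart. The part of these cell markers in the differences described here was not tested.

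Most of the imprinted genes lay under 1 RPKM in these adult livers. Of the 38 genes, 12 had a 6-library mean of 1 RPKM or more and were tested, 7 paternal, 4 maternal and Gnas. A further 18, of which 11 were paternal and 7 maternal, lay under 1 RPKM but had more than 3 reads in every library. Their reads ranged widely, from 5 to 37 a library for H19 to 407 to 633 for Sgce and 892 to 1039 for Ube3a. RPKM divides by the summed exons of all transcripts of a gene, so a low RPKM does not always mean few reads. Another 5 had more than 3 reads in some libraries only, namely Phlda2, Nap1l5, Sfmbt2, Rasgrf1 and Usp29. No read was found for Dlk1, Magel2 and Zim1, where a count of 0 allows up to 3 reads in a library, at most 0.00241 RPKM for Dlk1, 0.0105 RPKM for Magel2 and 0.00376 RPKM for Zim1. This floor covers counting error only.

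**Figure D1:**
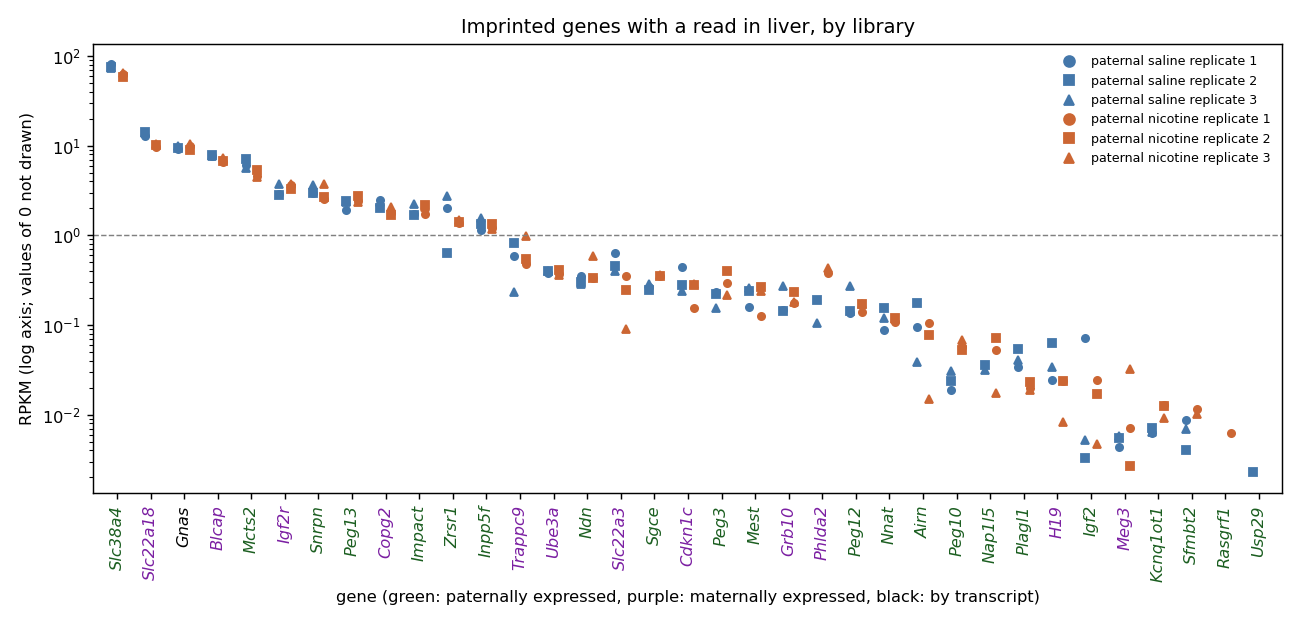
RPKM on a log axis of the 35 imprinted genes with a read, in order of their mean, with 1 point per library (blue, paternal saline; orange, paternal nicotine; circle, square and triangle, replicates 1, 2 and 3) and a dashed line at 1 RPKM; values of 0 are not drawn. Slc38a4 stands above all others at 58.0 to 80.6 RPKM, 12 genes have a mean above the line, and most genes lie under it.

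The 38 genes together summed to 135, 133 and 132 RPKM for paternal saline, and to 112, 108 and 117 RPKM in the paternal nicotine libraries. All paternal nicotine sums were therefore lower than all paternal saline sums. A single gene, Slc38a4, made up 53.5% to 59.6% of the sum in every library. Without it the sums were 54.5, 56.4 and 59.1 RPKM against 49.0, 50.5 and 53.4 RPKM. The 38 genes held 0.0346% to 0.0353% of all RPKM with paternal saline, against 0.0293% to 0.0331% in paternal nicotine.

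Of the 12 tested imprinted genes, 1 passed an adjusted p of 0.05, Slc22a18, which was lower in paternal nicotine. That is 8.33% of those tested, in limma with Benjamini-Hochberg adjustment over all tested genes, where 9.28% of 8773 genes passed, 3.89% higher and 5.39% lower, so the share of imprinted genes was near the background. At an unadjusted p under 0.05 there were 3 of the 12 and 2305 of all tested genes. The median log2 fold change was -0.10 over the 12 genes and -0.02 over all tested genes. Of the 7 paternal genes 0 passed, in limma or in voom, with 2 at an unadjusted p under 0.05 and a median of -0.07, and of the 4 maternal genes 1 passed, with a median of -0.18. In 4 of the 12 the groups did not overlap, all lower in paternal nicotine, against 33.6% of all tested genes in either direction, 14.4% higher and 19.2% lower. All of these fold changes were taken after adding 1 RPKM and therefore understate differences of low genes.

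**Figure D2:**
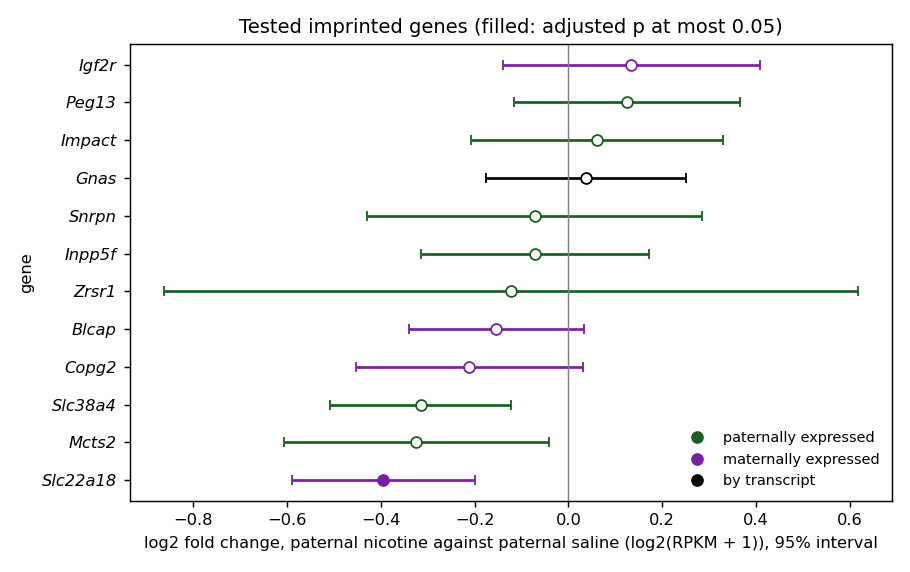
Log2 fold change of paternal nicotine against paternal saline on the log2(RPKM + 1) scale for the 12 tested imprinted genes, with 95% intervals from limma; green is paternally expressed, purple maternally expressed, black Gnas, and a filled point has an adjusted p of at most 0.05. The point of Slc22a18, at -0.40, is the filled one, and 8 of the 12 points lie under 0.

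Among the transporters, Slc22a18 (ENSMUSG00000000154, chr7:143473736-143499334, plus strand, GENCODE M21 on GRCm38) encodes a membrane carrier related to organic cation transporters and is expressed from the maternal chromosome of the Kcnq1 domain. Its levels were 12.9, 14.0 and 14.0 RPKM with paternal saline, against 9.61, 10.3 and 10.5 RPKM in paternal nicotine, from 3175 to 5004 reads a library. All paternal nicotine libraries lay below all paternal saline libraries, with means of 13.7 ± 0.641 and 10.1 ± 0.478 RPKM (SD, n = 3 per group). Slc22a18 fell by 0.40 in log2 units (SE 0.08, limma adjusted p = 0.0360), to 0.743 of the paternal saline mean. The adjusted p was between 0.0589 and 0.121 when any single library was left out, 0.118 without paternal nicotine replicate 2, and 0.0536 with a filter of 0.1 RPKM, so the call ended in each case. It passed in 7 of 17 alternatives, over which the adjusted p ran from 0.0234 to 0.121, and the log2 fold change from -0.43 to -0.36.

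Slc38a4 (ENSMUSG00000022464, chr15:96994820-97055956, minus strand) encodes a sodium-coupled transporter of neutral amino acids that is well known from liver and placenta, and it belongs to the paternal class. The 3 paternal saline libraries were at 80.6, 76.2 and 73.3 RPKM and the 3 paternal nicotine libraries at 62.7, 58.0 and 63.8 RPKM, from 44472 to 63055 reads a library. Here too the groups were separate, with means of 76.7 ± 3.68 and 61.5 ± 3.11 RPKM. The log2 fold change was -0.31 (SE 0.08, 95% interval -0.51 to -0.12), and the limma adjusted p of 0.0625 missed the threshold. Restricted to genes averaging 5 RPKM or more it was 0.0410, and over the 17 alternatives it ran from 0.0410 to 0.195.

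Another transporter gene, Slc22a3, an organic cation carrier of the maternal class next to Igf2r, lay under the tested range. It had 300, 231 and 194 reads in paternal saline and 168, 117 and 48 reads in paternal nicotine, which is 0.636, 0.452 and 0.396 RPKM against 0.355, 0.247 and 0.0897 RPKM. The groups did not overlap, and within paternal nicotine the values spread widely, with replicate 3 lowest. With the 0.1 RPKM filter its limma adjusted p was 0.225. Its annotation shares 420 exonic bases with Plg on the opposite strand, a gene at 1.84 to 3.55 RPKM, and without information on the strand reads of the pair cannot be told apart.

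**Figure D3:**
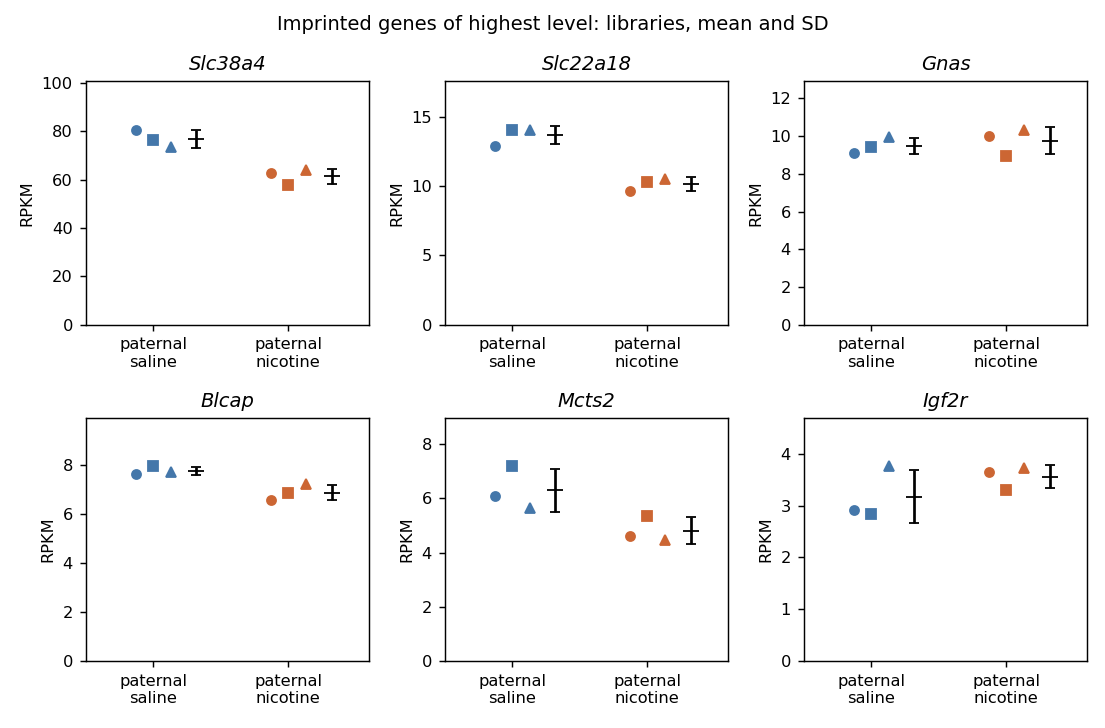
RPKM of the 6 imprinted genes with the highest mean, with 1 point per library (blue, paternal saline; orange, paternal nicotine; circle, square and triangle, replicates 1, 2 and 3) and the group mean ± SD in black; each axis starts at 0. The groups are separate for Slc38a4, Slc22a18, Blcap and Mcts2 and overlap for Gnas and Igf2r.

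Signalling and growth genes of the tested set overlapped between the groups. Gnas (chr2:174284320-174346744) encodes the stimulatory G protein alpha subunit that couples hormone receptors such as the glucagon receptor to cyclic AMP. Its levels were 9.08, 9.41 and 9.93 RPKM with paternal saline, against 9.99, 8.95 and 10.3 RPKM in paternal nicotine, where replicate 2 was the lowest of all 6 libraries. The log2 fold change was 0.04 (95% interval -0.18 to 0.25, limma adjusted p = 0.822). Igf2r, of the maternal class, encodes the receptor that takes up and degrades IGF2 and sorts lysosomal enzymes. It was at 2.91, 2.83 and 3.75 RPKM against 3.65, 3.30 and 3.71 RPKM, and its highest value was in paternal saline replicate 3. The log2 fold change was 0.13 (95% interval -0.14 to 0.41, limma adjusted p = 0.497). Inpp5f, a phosphoinositide phosphatase gene of the paternal class, was at 1.15, 1.34 and 1.57 RPKM against 1.20, 1.34 and 1.16 RPKM. Its log2 fold change was -0.07 (95% interval -0.32 to 0.17, limma adjusted p = 0.688).

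Genes of RNA and protein handling made up most of the remaining tested set. Mcts2 (ENSMUSG00000042814, chr2:152687035-152687946) is an intronless copy of the translation factor gene Mcts1 within an intron of H13, and is expressed from the paternal chromosome. It was at 6.08, 7.18 and 5.63 RPKM with paternal saline, against 4.63, 5.37 and 4.46 RPKM in paternal nicotine. The groups lay side by side without overlap, with means of 6.30 ± 0.793 and 4.82 ± 0.485 RPKM, and rest on 262 to 438 reads a library. Its log2 fold change was -0.32 (SE 0.12, limma adjusted p = 0.143). The host gene H13, which encodes signal peptide peptidase, was at 8.23, 7.95 and 6.62 RPKM against 11.8, 12.7 and 4.90 RPKM. Within paternal nicotine replicate 3 was therefore the lowest of all libraries and the other two were the highest. The log2 fold change of H13 was 0.24 (limma adjusted p = 0.697), and without paternal nicotine replicate 3 it was 0.63 (adjusted p = 0.0476). That was the only pass in 17 alternatives, over which the adjusted p ran up to 0.986 and the log2 fold change down to 0.018.

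Zrsr1, a second intronless paternal gene and a relative of the splicing factor U2AF, lies within Commd1. Its values of 2.0, 0.643 and 2.74 RPKM in paternal saline enclosed the 1.37, 1.42 and 1.49 RPKM of paternal nicotine. The spread lay in paternal saline, where replicate 2 was the lowest and replicate 3 the highest of all libraries. Its log2 fold change was -0.12 (95% interval -0.86 to 0.62, limma adjusted p = 0.832). Commd1, a copper homeostasis gene, shares 412 exonic bases with Zrsr1 on the opposite strand and was at 7.23, 6.54 and 6.38 RPKM against 5.37, 5.36 and 5.78 RPKM. The groups of Commd1 did not overlap, and its limma adjusted p was 0.133.

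Snrpn, a paternal gene of the Prader-Willi syndrome region that encodes a core splicing protein, was at 2.94, 2.94 and 3.64 RPKM with paternal saline, against 2.53, 2.68 and 3.77 RPKM in paternal nicotine, where replicate 3 exceeded every other library. Its log2 fold change was -0.07 (95% interval -0.43 to 0.29, limma adjusted p = 0.795). A near copy elsewhere in the genome, Gm5802, matches it over 700 bases at 95.3% identity and was at no more than 0.161 RPKM. Impact, a paternal gene that encodes an inhibitor of the amino acid sensing kinase GCN2, was at 1.75, 1.68 and 2.21 RPKM against 1.74, 2.18 and 2.08 RPKM, with groups that overlapped (log2 fold change 0.06, limma adjusted p = 0.766).

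Blcap (chr2:157556362-157571274), a small membrane protein gene of the maternal class that encloses Nnat, was at 7.61, 7.93 and 7.70 RPKM with paternal saline, against 6.57, 6.83 and 7.20 RPKM in paternal nicotine. All paternal nicotine values were lower, with means of 7.74 ± 0.163 and 6.86 ± 0.315 RPKM, and the log2 fold change was -0.15 (SE 0.08, limma adjusted p = 0.270). Copg2, a maternal gene for a subunit of the coat of Golgi vesicles, was at 2.51, 2.0 and 2.37 RPKM against 1.77, 1.70 and 2.05 RPKM. Its groups overlapped narrowly, at paternal saline replicate 2 and paternal nicotine replicate 3, and its limma adjusted p was 0.246. The 912 exonic bases it shares with Mest on the opposite strand leave the division of reads between the pair uncertain. Peg13, a paternal noncoding RNA gene within Trappc9, was at 1.92, 2.39 and 2.35 RPKM against 2.39, 2.75 and 2.38 RPKM, with overlap (log2 fold change 0.13, limma adjusted p = 0.477).

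Below 1 RPKM, 6 of the 18 genes with more than 3 reads in every library had groups that did not overlap, 3 higher and 3 lower in paternal nicotine. That is 33.3%, and over all 7374 genes of that kind the share was 18.5%, 10.7% higher and 7.8% lower. The 3 lower genes include H19, whose groups touch in reads and are apart in RPKM only through library size. With a filter of 0.1 RPKM, 24 imprinted genes could be tested in limma and 0 passed, with 4 at an unadjusted p under 0.05 and a lowest adjusted p of 0.0536, where 4.21% of all genes passed. In limma voom on whole reads, for genes averaging 20 reads or more, 28 could be tested and 0 passed, with 7 at an unadjusted p under 0.05, where 4.48% of all genes passed. The lowest adjusted p was 0.0591. None of the genes under 1 RPKM passed either test.

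The paternal pair Sgce and Peg10, which face away from each other on chromosome 6, were both higher in every paternal nicotine library than in any paternal saline library. Peg10, a gene derived from a retrotransposon and needed for placental development, had 23, 32 and 39 reads in paternal saline and 70, 65 and 94 reads in paternal nicotine. In RPKM that is 0.0187, 0.0240 and 0.0305 against 0.0567, 0.0526 and 0.0674, and the ratio of the means was 2.41. The voom log2 fold change was 1.28 (SE 0.33, adjusted p = 0.0916). Sgce, which encodes epsilon-sarcoglycan of the dystrophin complex, was at 0.267, 0.245 and 0.284 RPKM against 0.356, 0.355 and 0.364 RPKM, from 407 to 633 reads. The paternal nicotine libraries lay close together, and the ratio of the means was 1.35 (voom adjusted p = 0.153).

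Kcnq1ot1, the long antisense RNA of the paternal chromosome that silences genes of the Kcnq1 domain, had 36, 44 and 38 reads in paternal saline and 74, 72 and 60 reads in paternal nicotine. In RPKM this is 0.00625, 0.00706 and 0.00636 against 0.0128, 0.0125 and 0.00920, a ratio of means of 1.75. The groups were separate, but the voom adjusted p was 0.226, and the RNA lies within Kcnq1 on the opposite strand. Reads of unspliced Kcnq1 transcripts cannot be told apart from it. Plagl1, a zinc finger transcription factor gene of the paternal class, lay lower, with 51, 88 and 63 reads in paternal saline and 30, 35 and 32 reads in paternal nicotine. Its ratio of means was 0.482, and its voom adjusted p was 0.161.

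**Figure D4:**
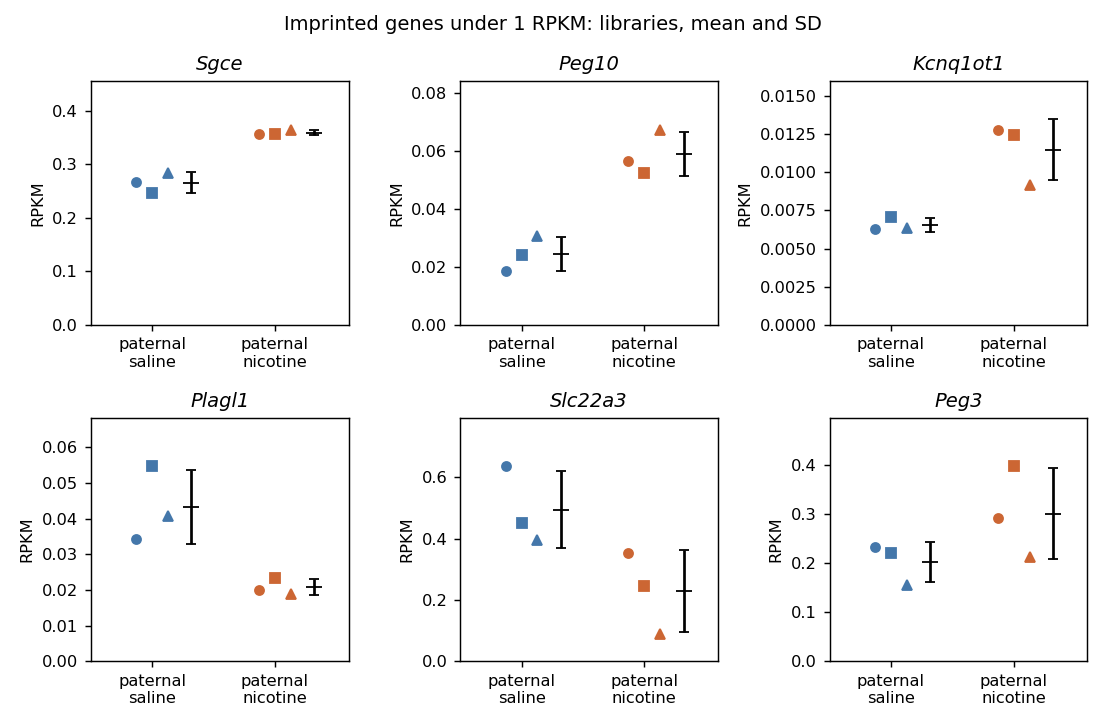
RPKM of 6 imprinted genes under 1 RPKM, with 1 point per library (blue, paternal saline; orange, paternal nicotine; circle, square and triangle, replicates 1, 2 and 3) and the group mean ± SD in black; each axis starts at 0. Sgce, Peg10 and Kcnq1ot1 lie higher and Plagl1 and Slc22a3 lower in paternal nicotine without overlap, while the groups of Peg3 overlap.

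The classic fetal growth genes lay under 1 RPKM in all libraries. Igf2, the fetal growth factor gene of the paternal class, had 79, 4 and 6 reads in paternal saline and 27, 19 and 6 reads in paternal nicotine. One library, paternal saline replicate 1, held most of the Igf2 reads, and the groups overlapped. Gm49394, on the same strand, shares 3596 exonic bases with Igf2, so the division of reads between them is uncertain. H19, its maternally expressed noncoding neighbour, had 13, 37 and 19 reads against 13, 13 and 5 reads, and the lowest paternal saline library and the highest paternal nicotine libraries had the same number of reads. Their RPKM differ only through library size, so in reads the groups of H19 touch. Meg3, a maternal noncoding RNA gene, had 8, 11 and 11 reads against 13, 5 and 68 reads, with the high value in paternal nicotine replicate 3 only, while its paternally expressed partner Dlk1 had none. Gm27000, a near copy, matches Meg3 over 842 bases. Grb10, which encodes an adaptor that restrains insulin and IGF receptors, had 164, 175 and 321 reads against 200, 265 and 228 reads.

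The groups of all other genes under 1 RPKM overlapped. Peg3, a paternal zinc finger gene that is active in brain and placenta, had 252, 258 and 176 reads in paternal saline and 318, 432 and 262 reads in paternal nicotine, which overlap narrowly in RPKM. Cdkn1c, a cell cycle inhibitor gene, had 154, 105 and 87 reads against 54, 98 and 114 reads. Airn, the antisense RNA that silences Igf2r on the paternal chromosome, had 28, 56 and 12 reads against 31, 23 and 5 reads. Both groups of Airn spread widely. Trappc9, a gene of vesicle traffic, had its lowest value, 350 reads, at paternal saline replicate 3 and its highest, 1613 reads, at paternal nicotine replicate 3, and stretches of its transcripts have near copies elsewhere. Ndn, a paternal gene of neuronal growth arrest, had 68 to 80 reads in 5 libraries and 152 in paternal nicotine replicate 3. Ube3a, a ubiquitin ligase gene known for imprinting in neurons, stayed between 892 and 1039 reads in all libraries. Mest had 91 to 199 reads, Nnat 46 to 87 and Peg12 22 to 46, each with overlap of the groups. Of the genes with reads in some libraries only, Phlda2 had 0, 19 and 10 reads against 35, 0 and 45, Nap1l5 0 to 11, Sfmbt2 0 to 16, Rasgrf1 5 reads in paternal nicotine replicate 1 and Usp29 4 reads in paternal saline replicate 2.

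The Kcnq1 domain on chromosome 7 holds 4 of the imprinted genes. Of these 4 genes and their neighbours, Cd81, Tssc4, Slc22a18, Nap1l4 and Cars were tested. Slc22a18 and Cd81 passed, both lower in paternal nicotine, where 9.28% of all tested genes passed and 5.39% were lower. Tssc4, Nap1l4 and Cars did not pass and had log2 fold changes above 0. In order along the chromosome, Cd81, a tetraspanin gene at the edge of the domain, was at 41.2, 38.7 and 40.6 RPKM with paternal saline, against 31.4, 30.3 and 33.2 RPKM in paternal nicotine. Cd81 fell by 0.34 in log2 units (SE 0.07, limma adjusted p = 0.0448), and it passed in 3 of 17 alternatives, with an adjusted p of 0.0597 to 0.159 when any single library was left out. Tssc4, chosen here after its values were seen, was at 1.64, 1.66 and 1.59 RPKM against 2.25, 2.40 and 4.05 RPKM, with groups that did not overlap and a limma adjusted p of 0.127. Kcnq1, the potassium channel gene that hosts Kcnq1ot1, was at 0.382, 0.652 and 0.575 RPKM against 0.600, 0.547 and 0.494 RPKM, with overlap. Slc22a18 was thus lower, Kcnq1ot1 at trace level and higher without passing, and Cdkn1c, Phlda2 and Nap1l4 overlapped between groups. Nap1l4 had a log2 fold change of 0.26 (limma adjusted p = 0.649), and Cars one of 0.15 (limma adjusted p = 0.426).

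**Figure D5:**
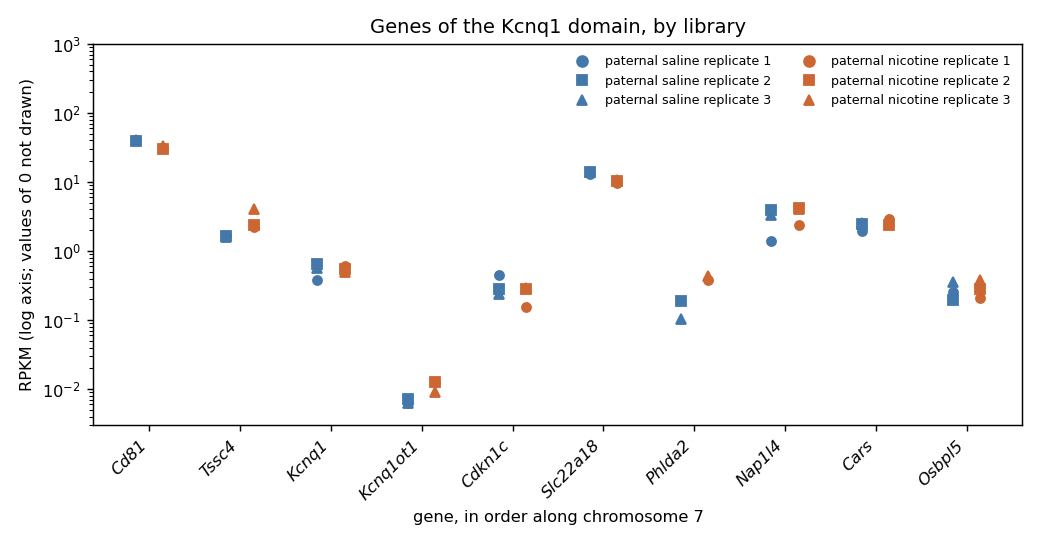
RPKM on a log axis of 10 genes of the Kcnq1 domain in their order along chromosome 7, with 1 point per library (blue, paternal saline; orange, paternal nicotine; circle, square and triangle, replicates 1, 2 and 3); values of 0 are not drawn. Cd81 at 30.3 to 41.2 RPKM and Slc22a18 at 9.61 to 14.0 RPKM stand above their neighbours and are lower in paternal nicotine, while Tssc4 and Kcnq1ot1 are higher there.

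The genes around the imprinted set were read from lists of names. Of 50 other genes with reported imprinting 16 were tested and 2 passed, both lower in paternal nicotine, which is 12.5% against 9.28% of all tested genes, and their median log2 fold change was 0.12. These were Cd81 and Ddc, which encodes the decarboxylase of dopamine and serotonin synthesis and lies beside Grb10. Ddc was at 8.26, 7.18 and 6.20 RPKM against 2.73, 3.43 and 4.52 RPKM, and fell by 0.86 in log2 units (SE 0.17, limma adjusted p = 0.0359). The call of Ddc held without paternal nicotine replicate 3 (adjusted p = 0.0321) and ended when any other single library was left out (0.0676 to 0.120). Herc3, given as the host of Nap1l5 and under the tested range, was at 0.715, 0.545 and 0.514 RPKM against 0.315, 0.380 and 0.326 RPKM. It was lower in paternal nicotine without overlap. Tspan32, Ppp1r9a, Atp10a, Wt1, Tnfrsf23 and Ampd3 of the same list, also untested, were higher without overlap. Over all genes under 1 RPKM with more than 3 reads in every library, 7.8% were lower and 10.7% higher without overlap.

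Of 30 genes that set, keep or read imprints 10 were tested and 0 passed in limma, with 0 at an unadjusted p under 0.05, and 0 passed in voom, where 8.55% of all genes passed. Their median log2 fold change was -0.06. Of the 10 tested, 1 was lower without overlap and 0 were higher, against 33.6% of all tested genes in either direction. It was Eed, at 2.68, 3.34 and 3.04 RPKM against 2.38, 2.61 and 2.22 RPKM (limma adjusted p = 0.193). Of these regulators a few are named after their values were seen. Trim28, which bridges zinc finger proteins to silencing complexes, was at 6.61, 7.73 and 7.92 RPKM against 6.94, 6.38 and 7.84 RPKM. Zfp57, the zinc finger protein that recognises methylated imprinting control regions, was at 0.0122, 0.00565 and 0.0365 RPKM against 0.0695, 0.0415 and 0.0508 RPKM, a trace level that was higher in paternal nicotine without overlap and was below the tested range. Dnmt1, the maintenance methyltransferase gene, was at 0.443 to 0.581 RPKM against 0.479 to 0.759 RPKM. Zfp445, a zinc finger gene with a role like that of Zfp57, was at 0.144, 0.142 and 0.108 RPKM against 2.84, 0.206 and 1.12 RPKM. It was also below the tested range, and higher in all paternal nicotine libraries but with a wide spread among them. Uhrf1, untested too, was higher without overlap, at 0.0246 to 0.0287 RPKM against 0.0367 to 0.175 RPKM. Of all genes under 1 RPKM with more than 3 reads in every library, 10.7% were higher without overlap.

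The IGF axis list holds 16 genes around Igf2 and Igf2r, such as Igf1, receptors, their substrates and binding proteins. It also includes Igf2bp1, Igf2bp2 and Igf2bp3, which were not tested. Of the 16 genes 11 were tested, with a median log2 fold change of -0.27. Of these 11 genes 1 passed, which is 9.09% against 9.28% of all tested genes and thus near the background. That gene was Igfbp2, which encodes a secreted IGF-binding protein made by liver, at 367, 243 and 310 RPKM with paternal saline, against 137, 126 and 165 RPKM in paternal nicotine. All paternal nicotine libraries were lower, and Igfbp2 fell by 1.09 in log2 units (SE 0.18, limma adjusted p = 0.0213). The call ended without paternal saline replicate 1 or 3 or paternal nicotine replicate 1 or 2 (adjusted p = 0.0654 to 0.0840). Of 6 genes of the switch from fetal to adult liver, 1 was tested, Zhx2, a repressor of H19 and of the alpha-fetoprotein gene Afp in mouse liver. Zhx2 was at 3.70, 4.44 and 3.77 RPKM against 4.99, 4.63 and 4.88 RPKM, without overlap, and its limma adjusted p was 0.178. Afp stayed between 0.0453 and 0.242 RPKM.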

How the data were processed

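Liver RNA of 6 mice was sequenced, 3 per group, with 1 table per library. The authors deposited RPKM values per Ensembl gene. The submitters' processing notes name CASAVA, TopHat and the build mm8, without roles, while 99.9% of the gene IDs occur in GENCODE M21 on GRCm38, from which all names and coordinates were taken. No source used here names the counting tool, the strand or the handling of multiply matching reads. Deposited values below 1e-06 RPKM stand for 0 and were set to 0. Multiplied by exon length and library total, values came out as whole reads for all 25531 genes that had any (within 0.01), with the length found by search for 1021 genes. For most genes the length behind an RPKM is the summed exons of every annotated transcript. Shared exons count more than once, so levels of genes with many transcripts read low. Library totals were 61837267 to 70089315 reads.

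The 8773 genes averaging 1 RPKM or more were tested on log2(RPKM + 1) with limma 3.58.1 (trended and robust empirical Bayes, R 4.3.3) and Benjamini-Hochberg adjustment at 0.05 over all tested genes. limma voom was run on whole reads. Near copies were found with blastn 2.17.0 at 95% identity over 200 bases, and overlaps of at least 50 exonic bases with bedtools 2.31.1. The limma fit was tested on simulated log values, and the other steps were not. Every imprinted gene is accounted for, and all tested ones are given with 6 values. Of the other lists those past the threshold and the hosts Commd1, H13, Herc3 and Kcnq1 are named. Some further genes of these lists are named as well, of which Tssc4 and a few imprint regulators were picked after their values were seen. The rule for the 38 genes uses names only, but these genes and the other lists were chosen for description with earlier results of these data known. Within groups, log values correlated at 0.939 to 0.966 across genes, which are not independent replicates, and no pair of libraries agreed within sampling noise (chi-square per degree of freedom of at least 178). The labels do not say whether same-numbered animals are related.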

Additional observations from a re-analysis of the deposited data

How the results depend on the processing

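Among all tested genes the 814 calls became 367 with no filter, 1411 at an adjusted p of 0.1, 156 at 0.01, and 182 to 658 when a library was left out, the lowest without paternal nicotine replicate 2. The split of 341 higher and 473 lower was 405 and 431 after median ratio rescaling and 379 and 438 after quantile normalization. The 1 call among imprinted genes became 2 with a filter of 5 RPKM or an adjusted p of 0.1, and 0 with no filter, with a filter of 0.1 RPKM, at 0.01, in voom with at least 20 reads, and without any single library (0 to 0). The 2 calls among other imprinted genes became 1 with either rescaling, without trend, in voom and in voom with at least 20 reads, 0 with no filter, with the 0.1 RPKM filter and at 0.01, and 0 to 2 when a library was left out. The 1 call of the IGF axis became 0 with no filter and at 0.01, and 0 to 2 when a library was left out. Regulators stayed at 0 throughout. The cause of these shifts was not tested. Log2 fold changes of genes that did not pass changed sign when a library was left out for Gnas (-0.0011 to 0.093, negative without paternal nicotine replicate 3), Zrsr1 (-0.47 to 0.13, positive without paternal saline replicate 3) and Snrpn (-0.21 to 0.010, positive without paternal saline replicate 3, at 0.0069, and without paternal nicotine replicate 1, at 0.010). Of the single-gene results under alternatives 37 lost the threshold, 2 gained it and 4 changed sign. A further 259 results were counted as keeping direction and side of the threshold. These 259 include the median log2 fold changes of the paternal and maternal classes after rescaling, for which neither was checked. With the replicate number as a block 383 genes passed, with 0 among imprinted and 0 among other imprinted genes, but same-numbered libraries deviated together by correlations of only 0.0071, 0.056 and 0.049, so they share a number and no known pairing. Voom with at least 20 reads was chosen after the data were seen. Depth limits those low genes that rest on few reads a library.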
